A study of Mus musculus with 18 samples.

Results

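The genes described here encode the nuclear-encoded subunits of the mitochondrial respiratory chain and of ATP synthase. A gene was taken when its symbol began with Nduf, Uqcr or Atp5, or with Cox and a digit from 4 to 8, or was Sdha, Sdhb, Sdhc, Sdhd or Cycs. Pseudogene symbols and the assembly factors named Ndufaf were left out. The rule found 87 of 23284 symbols in the mouse tables and 91 of 25434 in the human tables, and no gene had more than 1 entry. Among the mouse genes 36 belonged to complex I, 4 to complex II, 8 to complex III, 1 was cytochrome c, 20 belonged to complex IV and 15 to ATP synthase. The remaining 3, Atp5s, Atp5sl and Cox4nb, share the naming but are not structural subunits. Ndufa4 and Ndufa4l2 were counted under complex IV, where the Ndufa4 protein resides.

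The respiratory chain passes electrons from NADH (complex I) and succinate (complex II) to ubiquinone, then through complex III and cytochrome c to oxygen at complex IV. Complexes I, III and IV pump protons, and ATP synthase, also called complex V, makes ATP as the protons flow back. Most subunits are encoded in the nucleus and a core set in mitochondrial DNA. Several complex IV subunits exist as pairs of genes, a common form and a form restricted to tissues such as heart, muscle, lung or testis. T cells are known to adjust respiration and glycolysis when activated, whereas granulocytes are known for low respiration.

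RNA was sequenced in 18 libraries that form 6 groups of 3, all labelled BALB/c. Memory Th2 cells with high ST2, the IL-33 receptor, were cultured for 3 days with IL-2 alone (replicates 1, 3 and 5) or with IL-2 and IL-33 (replicates 2, 4 and 6). Eosinophils were cultured for 3 days without or with amphiregulin (AREG), an epidermal growth factor family ligand (numbers 2, 3 and 4 in each group). Lungs of OVA-treated wild-type mice and of OVA-treated dGATA mice, which the labels call knockout, were the last 2 groups, although the series' design text speaks of house dust mite. The labels give no age and do not say whether replicates were separate animals or cultures, so p-values measure the spread between these samples, which may be technical.

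Values were FPKM, that is fragments scaled by transcript length and sequencing depth, so levels of different genes can be set side by side. Total read counts were not used here. Relative depth, estimated from low values, spanned 0.67 to 1.34 (Th2), 0.58 to 1.0 (lung) and 0.36 to 1.0 (eosinophils), where 1.0 is the first library of each comparison. The eosinophil tables hold human symbols and coordinates (gene ends on chromosome 1 reach position 249213345, beyond the 195176715 of the mouse tables) although the labels name mouse, and they were read as human. T cell genes were abundant in the Th2 libraries (8 genes, summed FPKM 1334 to 1587 with IL-2 and 2276 to 2324 with IL-33), where 10 macrophage genes summed to at most 11.2. Il1rl1, which encodes ST2, averaged 51.5 ± 6.73 FPKM with IL-2 and 512 ± 6.10 with IL-33 (n = 3). In the lung Gata1 averaged 1.28 ± 0.344 FPKM in wild type and 0.191 ± 0.106 in dGATA, and the eosinophil receptor gene Ccr3 5.36 ± 0.733 and 0.125 ± 0.111. Eosinophil genes summed to 1142 to 4905 FPKM in the eosinophil libraries. Neutrophil genes summed to more in each of these libraries (6749 to 20490 FPKM), and macrophage genes to 202 to 2423. In bulk samples fewer cells of a type and less RNA per cell cannot be told apart. Differences below are on the log2(FPKM + 1) scale, which understates changes of genes near 1 FPKM, and were tested with limma over all genes with at least 1 FPKM in at least 3 libraries. A gene was called at a Benjamini-Hochberg adjusted p below 0.05.

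Many promoters of these genes are known to bind the factors NRF1, GABP (an ETS family factor) and YY1. RefSeq promoter windows (GRCm38.p6, 250 bases before to 50 after the transcript start) were matched for 71 of the 87 mouse genes and searched on both strands for 3 motifs. The NRF1 motif, GCGC followed by A, any base and GCGC, was found for 17 genes (23.9%), against 5.2% of all 27025 genes with a promoter. The ETS motif CCGGAAG was found for 16 (22.5%, against 9.9%) and the YY1 motif AAGATGGC for 11 (15.5%, against 3.2%). No match of one motif overlapped a match of another, and 38 of the 71 genes (53.5%) held at least 1, against 16.4% of all genes. A match describes the letters only. The following 4 genes were chosen because they were lower with IL-33 in the Th2 cells and hold a match in the 250 bases before their start, written 5′ to 3′ on the gene's strand with the NRF1 or ETS match, or its reverse complement, in capitals. They come from complexes I, II and V.
Ndufa8 (chr2:36049339-36049588, minus strand, NRF1): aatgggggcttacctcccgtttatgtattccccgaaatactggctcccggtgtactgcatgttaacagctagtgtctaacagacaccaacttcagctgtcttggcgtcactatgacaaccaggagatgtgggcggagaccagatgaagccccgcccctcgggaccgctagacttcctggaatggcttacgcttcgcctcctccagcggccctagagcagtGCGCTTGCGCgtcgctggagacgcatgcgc
Ndufb7 (chr8:83566508-83566757, plus strand, ETS): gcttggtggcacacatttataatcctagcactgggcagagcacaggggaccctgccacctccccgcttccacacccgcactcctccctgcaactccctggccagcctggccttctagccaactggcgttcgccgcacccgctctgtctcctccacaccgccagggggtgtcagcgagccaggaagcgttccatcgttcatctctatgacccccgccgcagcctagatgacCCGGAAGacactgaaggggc
Sdhd (chr9:50603850-50604099, minus strand, NRF1 then ETS): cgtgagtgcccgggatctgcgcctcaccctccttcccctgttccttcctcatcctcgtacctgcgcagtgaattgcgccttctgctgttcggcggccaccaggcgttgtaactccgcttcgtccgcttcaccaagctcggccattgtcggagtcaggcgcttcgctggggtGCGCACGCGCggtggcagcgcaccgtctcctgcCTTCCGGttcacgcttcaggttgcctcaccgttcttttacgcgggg
Atp5g2 (chr15:102671048-102671297, minus strand, NRF1): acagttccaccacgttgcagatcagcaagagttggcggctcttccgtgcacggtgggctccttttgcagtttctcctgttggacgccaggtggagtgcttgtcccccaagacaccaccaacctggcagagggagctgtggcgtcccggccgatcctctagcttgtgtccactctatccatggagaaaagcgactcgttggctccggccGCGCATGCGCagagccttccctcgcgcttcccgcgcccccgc

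The summed level of the 87 genes lay close together in the 4 mouse groups. It averaged 9882 ± 542 FPKM (SD, n = 3) in Th2 cells with IL-2, 8392 ± 293 with IL-33 added, 9113 ± 363 in wild-type lung and 10039 ± 1084 in dGATA lung. These sums were 1.87%, 1.70%, 1.80% and 1.84% of all FPKM in the same order. Small RNA features held 20.1 to 21.3% of all FPKM in Th2 cells with IL-2 and 12.1 to 18.1% with IL-33. They held 3.98 to 5.11% in the lungs and 20.01 to 38.4% in the eosinophils. Levels and shares across tissues depend on these features, and sums without them are not given here. The 91 human genes summed to 6261 ± 1137 FPKM in eosinophils without AREG and 7332 ± 1683 with it, or 0.938% and 1.27% of all FPKM. The most abundant complex I gene was Ndufa3 in all 4 mouse groups, at 217 to 304 FPKM on average, and NDUFA13 in the eosinophils, at 211 and 229. Among complex IV genes Cox4i1 led in 3 mouse groups, at 354 to 408 FPKM, and Cox6a1 led in Th2 cells with IL-33, at 315, while COX8A led in the eosinophils, at 324 and 401. In ATP synthase, Atp5b, the catalytic F1 beta subunit, led in both Th2 groups and in wild-type lung, and Atp5e or ATP5E, the small F1 epsilon subunit, led in dGATA lung and in both eosinophil groups. Cytochrome c was 55.8 FPKM on average in Th2 cells with IL-2 and 42.9 with IL-33, but 10.7 and 13.2 in wild-type and dGATA lung, and 4.47 and 9.03 in eosinophils without and with AREG.

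**Figure D1:**
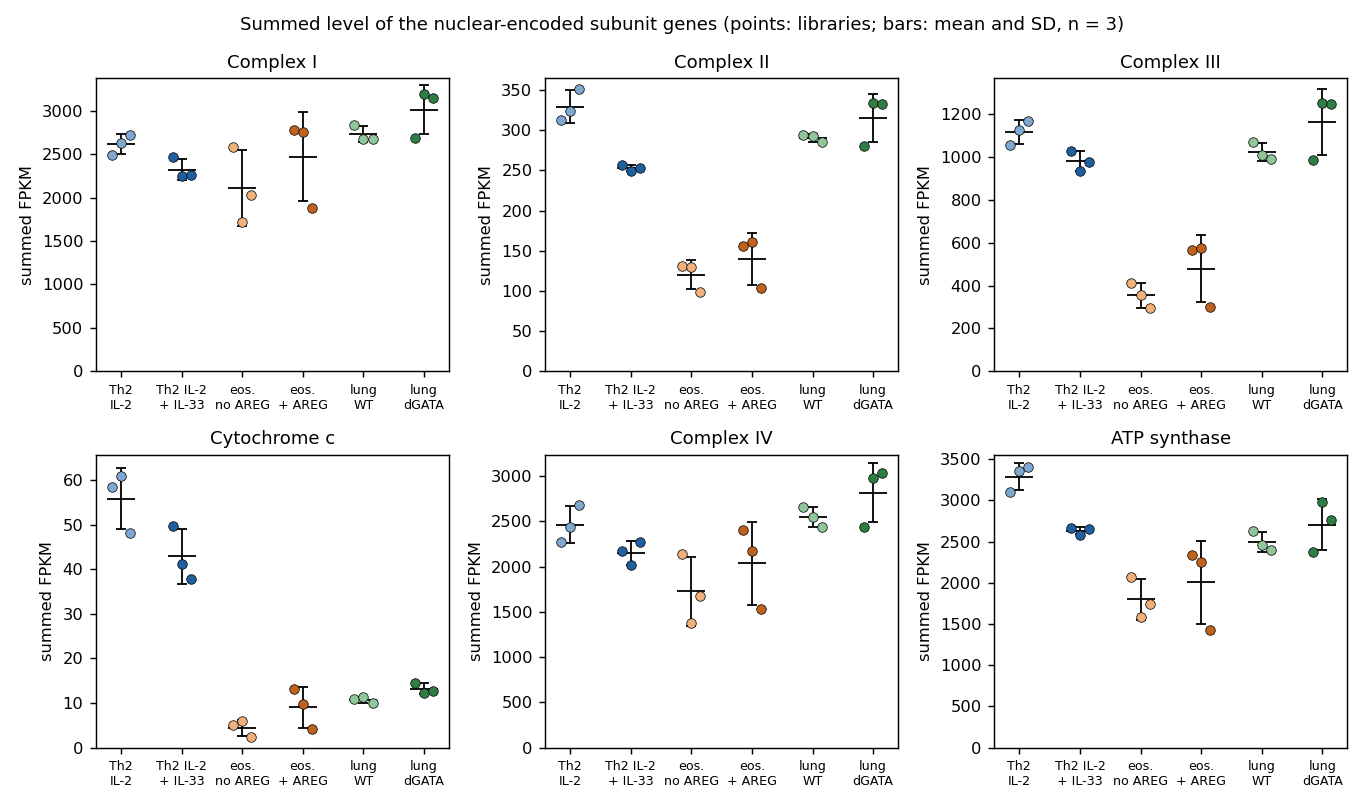
Summed FPKM of the subunit genes of each complex (y axis) in each library (points), by group (x axis), with mean and SD (n = 3). Cytochrome c is highest in the Th2 cells, and the 3 IL-33 libraries lie below the 3 IL-2 libraries for complexes I to IV and ATP synthase.

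With the values as deposited, part of the set was lower with IL-33 in the Th2 cells. Falls were then called in every complex but not for cytochrome c. Of 79 genes tested, 32 fell and 2 rose, where 25.7% of all 10296 genes tested fell and 16.3% rose. Among genes with a mean of at least 20 FPKM, 31 of 74 members fell, against 31.4% of all such genes. The called falls were moderate, between 17.2% and 41.5% of the mean FPKM. The median difference of the members was log2 -0.27, beside -0.11 for all genes tested. Under median-of-ratios scaling the median of all genes moved to 0.00 and that of the members to -0.15. There 14 of 79 members fell and 3 rose, where 17.8% of all genes fell and 21.3% rose. Falls were thus no more frequent than among all genes under that scaling. After rescaling to a common sum (TPM) the medians were -0.01 and -0.17, and 17 members fell and 2 rose, where 14.9% of all genes fell. For 46 of the 79 members the 3 IL-33 libraries all lay below the 3 IL-2 libraries, as did 35% of all genes. Of the 32 genes, 13 were lower under all 3 scalings: Ndufa8, Ndufa9, Ndufa12, Ndufb7, Ndufc2, Ndufs4, Sdhb, Sdhd, Ndufa4, Atp5e, Atp5g1, Atp5g2 and Atp5o. All of these but Sdhd and Ndufa4 were also called on leaving out any 1 library. The shares of all genes that met either condition are not given here, so these counts do not set the members apart. Small RNA features held 20.1 to 21.3% of all FPKM with IL-2 and 12.1 to 18.1% with IL-33. After removing them 36 members fell, all 32 included, where 26.0% of all genes fell. Without IL-33 replicate 4, IL-2 replicate 3 or IL-2 replicate 1 the count that fell was 14, 15 or 19. The share of all genes that fell in these fits is not given here.

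In complex I, 14 of 35 genes tested fell and 2 rose, among both the catalytic core and the accessory subunits, which surround and stabilise it. Of 28 accessory subunits 13 fell, and of 7 core subunits 1, Ndufs7, which carries the last iron-sulfur cluster before ubiquinone (log2 -0.30, SE 0.0856, adjusted p = 0.0278, limma). The Ndufs7 call was lost after TPM rescaling (0.130), under median-of-ratios scaling (0.155) and without any library other than IL-33 replicate 4 (0.0508 to 0.0748). The difference between the accessory and the core counts was not tested. Ndufa12 fell furthest. It stood at 67.0, 65.3 and 69.1 FPKM with IL-2 (replicates 1, 3 and 5) and at 34.0, 37.2 and 46.7 with IL-33 (replicates 2, 4 and 6), with no overlap between the groups (log2 -0.77, SE 0.121, adjusted p = 0.00311, limma, chr10:94199009-94220948, mm10). Ndufa8, a twin-cysteine subunit whose promoter with its NRF1 match is printed above, stood at 84.8, 86.3 and 99.6 FPKM with IL-2 and at 64.7, 64.2 and 62.4 with IL-33 (log2 -0.49, SE 0.0867, adjusted p = 0.00497, limma). Ndufb7, shown above with its ETS match, fell from 150.3, 159 and 159 to 116, 119 and 100.04 FPKM. Ndufs4, whose loss is known to impair complex I assembly and to cause Leigh syndrome, fell from a mean of 28.8 to 20.6 FPKM. For each of these 4 genes the groups did not overlap.

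Ndufa1 and Ndufv3 went the opposite way. Ndufa1, an X-linked membrane-arm subunit (chrX:37187589-37191238), rose from 138, 137 and 149.8 FPKM to 236, 204 and 184 (log2 0.54, SE 0.110, adjusted p = 0.00845, limma). All 3 IL-33 libraries were above all 3 IL-2 libraries, and the call was kept under both other scalings. Ndufv3, an accessory subunit of the NADH-binding module, rose from 101 ± 8.49 to 134 ± 10.8 FPKM (n = 3, log2 0.41, SE 0.0998, adjusted p = 0.0167, limma). That call was lost in the fit over the 12 mouse libraries (0.0941) and without IL-2 replicate 1 (0.0614) or IL-33 replicate 2 (0.0569). Ndufs5 was listed at 38.2 FPKM in IL-2 replicate 5, at 3.13 in IL-33 replicate 6 and near 0 in the other 4 Th2 libraries, and did not enter the test. In the lung Ndufs5 was listed at 26.9 and 38.8 FPKM in wild-type replicates 1 and 3 and near 0 in the other 4 libraries.

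Complex II, succinate dehydrogenase, also belongs to the tricarboxylic acid cycle and is encoded wholly in the nucleus. All 4 differences were below 0, and 2 genes fell. Sdhb, the iron-sulfur subunit, stood at 139, 142 and 144 FPKM with IL-2 and at 108, 102 and 95.02 with IL-33, with no overlap (log2 -0.48, SE 0.0798, adjusted p = 0.00395, limma, chr4:140961271-140979192). Sdhd, a membrane anchor, fell from 75.7, 78.0 and 105 FPKM to 60.2, 55.4 and 59.4, where IL-2 replicate 5 stood above the others (log2 -0.54, adjusted p = 0.0173, limma; 0.0657 without IL-33 replicate 4). Sdha, the flavoprotein, stood at 41.3, 43.3 and 40.9 FPKM and at 35.6, 37.3 and 39.0, which do not overlap, but did not pass (log2 -0.16, adjusted p = 0.114, limma). Sdhc, the other anchor, averaged 59.4 and 55.7 with overlap and did not pass (log2 -0.09, adjusted p = 0.384, limma). The summed level of complex II was 329 ± 20.1 FPKM with IL-2 and 253 ± 3.72 with IL-33 (n = 3), or 0.0623% and 0.0513% of all FPKM.

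Of the 8 complex III genes 4 fell: the core proteins Uqcrc1 and Uqcrc2, and the small subunits Uqcrq and Uqcr11. Uqcr11 went from 129, 140.0 and 166 FPKM to 114, 94.7 and 104 (log2 -0.47, SE 0.1196, adjusted p = 0.0191, limma). Uqcrq averaged 218 and 170.3 FPKM (log2 -0.35, adjusted p = 0.0163, limma). Neither was called under median-of-ratios scaling (adjusted p = 0.0516 and 0.0678, limma), nor without IL-33 replicate 4 (0.0727 and 0.0601). Uqcrq also lost its call after TPM rescaling (adjusted p = 0.0629, limma) and in the fit over 12 mouse libraries (0.0802). The same held without IL-2 replicate 3 (0.0739) or IL-33 replicate 2 (0.0507). Uqcrc1 and Uqcrc2 were also not called under either other scaling (adjusted p = 0.0813 to 0.209, limma), nor without IL-2 replicate 1 (0.0843 and 0.0620), IL-2 replicate 3 (0.0894 and 0.0593) or IL-33 replicate 4 (0.0539 and 0.0711), and Uqcrc1 not without IL-2 replicate 5 (0.0820) or IL-33 replicate 2 (0.0983) or in the fit over 12 mouse libraries (0.0750). Uqcrh, the acidic hinge protein that contacts cytochrome c, averaged 212 and 240.2 FPKM and did not pass (log2 0.17, adjusted p = 0.198, limma). Cycs, the somatic cytochrome c gene (chr6:50562563-50566474), stood at 58.4, 60.9 and 48.0 FPKM with IL-2 and at 49.7, 41.1 and 37.8 with IL-33. Its groups overlapped and it did not pass (log2 -0.37, adjusted p = 0.0588, limma). It did pass in the fit over the 12 mouse libraries (0.0357) and without IL-2 replicate 5 (0.0306) or IL-33 replicate 2 (0.0402).

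In complex IV 4 of 13 genes tested fell, Cox4i1, Cox6c, Cox7b and Ndufa4, a share near the 25.7% of all genes that fell. Ndufa4 stood at 268, 274 and 301 FPKM with IL-2 and at 175, 139 and 233 with IL-33, so that IL-33 replicate 4 was lowest and replicate 6 nearest to the IL-2 libraries (log2 -0.66, SE 0.182, adjusted p = 0.0260, limma; chr6:11900373-11907446). The adjusted p rose to between 0.0553 and 0.0783 when any library other than IL-33 replicate 6 was left out. Cox6c, a small subunit of the complex, stood at 208, 218 and 249.9 FPKM with IL-2 and at 196, 151 and 178 with IL-33, without overlap (log2 -0.37, SE 0.124, adjusted p = 0.0491, limma). Its call was lost under both other scalings (0.0988 and 0.148), with no filter (0.0789), without libraries 5 and 6 (0.0589) and without any library other than IL-33 replicate 2 (0.0668 to 0.149). Cox4i1, the common form of a regulatory subunit, averaged 390.2 ± 14.99 and 313 ± 15.1 FPKM (n = 3, log2 -0.32, adjusted p = 0.0234, limma). It lost its call after TPM rescaling (0.1203), under median-of-ratios scaling (0.101) and without any library other than IL-33 replicate 6 (0.0606 to 0.0751). Cox7b averaged 82.0 and 64.5 FPKM (log2 -0.35, adjusted p = 0.0306, limma), a call also lost under both other scalings (0.0690 and 0.137) and without any library other than IL-33 replicate 2 (0.0531 to 0.107). Cox7a2 (log2 -0.33, adjusted p = 0.0577, limma), Cox6b1 (-0.14), Cox8a (0.15) and Cox7a2l, a factor that joins complexes III and IV into supercomplexes (0.12), did not pass. Cox6a1 averaged 317 and 315 FPKM.

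In ATP synthase 7 of 15 genes fell and none of the 15 had a difference above 0, and the summed level was 3288 ± 163 FPKM with IL-2 and 2631 ± 45.2 with IL-33 (n = 3), or 0.622% and 0.534% of all FPKM. Of the F1 head Atp5a1, Atp5b and Atp5e fell, of the peripheral stalk Atp5f1 and Atp5o, and of the membrane ring Atp5g1 and Atp5g2. The calls of Atp5a1 and Atp5f1 were lost under both other scalings (adjusted p = 0.0995 to 0.218, limma), that of Atp5a1 also without any library other than IL-33 replicate 6 (0.0904 to 0.112), and that of Atp5f1 without IL-2 replicate 1 or 3 or IL-33 replicate 4 or 6 (0.0526 to 0.109). Atp5b lost its call after TPM rescaling (0.0558) and without IL-2 replicate 3 (0.0579) or IL-33 replicate 4 (0.0541). Atp5e, the epsilon subunit, stood at 435, 499 and 547 FPKM with IL-2 and at 351, 334 and 353 with IL-33 (log2 -0.51, SE 0.109, adjusted p = 0.0105, limma, chr2:174461075-174464101). Atp5o, the stalk protein OSCP, fell from 123, 122 and 119.5 FPKM to 90.6, 85.5 and 87.3, groups that were tight and well apart. The 3 Atp5g genes encode the same mature c subunit with different import sequences. Atp5g2, whose promoter is printed above, fell from 226, 231 and 247 FPKM to 174, 153 and 153 (log2 -0.55, SE 0.0903, adjusted p = 0.00364, limma). Atp5g1 fell from 68.4 ± 7.42 to 47.1 ± 5.25 FPKM (n = 3, log2 -0.53, adjusted p = 0.0115, limma). Atp5g3, the most abundant of the 3, averaged 367 and 330 FPKM and did not pass (log2 -0.15, adjusted p = 0.176, limma). The share of Atp5g3 in the summed c subunit FPKM was 55.1%, 55.2% and 54.0% with IL-2 and 59.4%, 63.3% and 61.5% with IL-33. That is no overlap, but an exact two-sided permutation test of 3 against 3 libraries cannot go below p = 0.1, the value found (0.3 adjusted over the 9 shares compared).

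**Figure D2:**
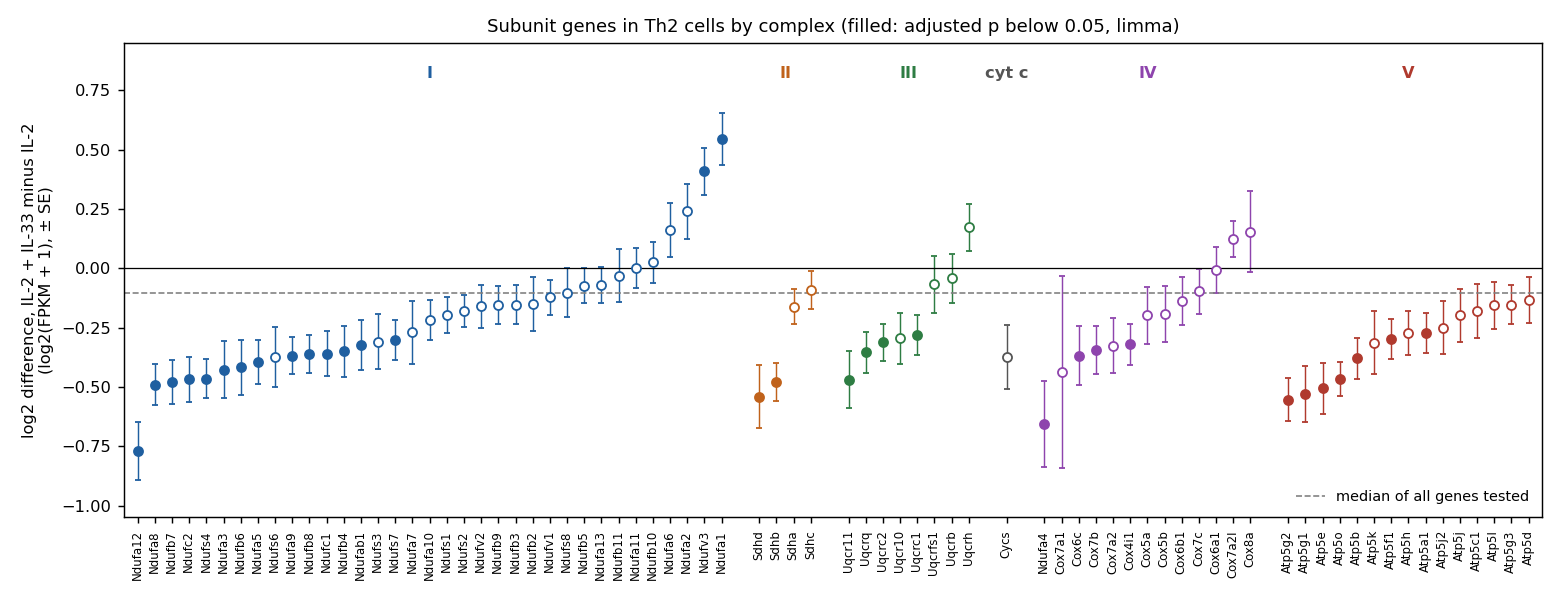
Log2 difference with its SE (y axis, IL-2 with IL-33 minus IL-2) of each subunit gene tested in Th2 cells, grouped by complex (x axis). Filled points passed the test. Most points lie below 0, Ndufa12 is lowest at -0.77, and the filled points above 0 are Ndufa1 and Ndufv3.

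Other gene lists were counted beside these, to be read against the 25.7% of all genes that fell. Of 9 housekeeping genes 3 fell and none rose (median log2 -0.21). Of 76 mitochondrial ribosome genes, which translate the mitochondrially encoded subunits, 38 fell and 2 rose with IL-33 (median log2 -0.35), led by Mrpl30 (115 to 60.8 FPKM), Mrpl13 and Mrpl15. Of 28 assembly factors 11 fell and 1 rose (median -0.26), among them Foxred1 of complex I (13.8 to 6.95 FPKM, log2 -0.90), Cox15 of heme a synthesis (-0.86) and Ndufaf4 (-0.64). Of 17 tricarboxylic acid cycle genes 8 fell and none rose (median -0.24), including the citrate synthase gene Cs, from 82.2 ± 1.08 to 57.5 ± 1.88 FPKM (log2 -0.51, adjusted p = 0.00176, limma). Of 20 carriers and coupling genes 6 fell, a share near that of all genes, and 2 rose; the outer membrane channel gene Vdac1 fell (log2 -0.46) and the electron transfer flavoprotein dehydrogenase gene Etfdh rose (0.50). Of 16 regulators of mitochondrial biogenesis 2 fell, Gabpa (log2 -0.30) and Myc, and Polg2 rose (0.52) at 1.37 and 2.43 FPKM. That share of falls was below that of all genes. Under either other scaling 1 of the 16 fell and 2 rose. Myc averaged 219 ± 41.5 FPKM with IL-2 and 96.6 ± 56.6 with IL-33 (n = 3, log2 -1.30, SE 0.362, adjusted p = 0.0261, limma). Under TPM and median-of-ratios scaling, where 14.9% and 17.8% of all genes fell, 21 and 27 mitochondrial ribosome, 6 and 9 assembly, 4 and 6 tricarboxylic acid cycle and 2 and 0 housekeeping genes fell, and the median of the carriers turned to 0.01 and 0.03 from -0.09. Cell cycle genes summed to 363 to 388 FPKM with IL-2 and 347 to 424 with IL-33 (median log2 0.03). Of these 10 genes 1, the proliferation marker Mki67, fell (27.5 to 21.2 FPKM, adjusted p = 0.0397, limma). Under TPM or median-of-ratios scaling no cell cycle gene was called. Genes encoded in mitochondrial DNA were not analysed here. Among the 71 genes with a promoter window, 27 fell, and the other 44 include genes that rose or were not tested. The NRF1 motif was held by 7 of the 27 and 10 of the 44, the ETS motif by 6 and 10, and the YY1 motif by 7 and 4.

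In the eosinophils, none of 83 genes tested was called with AREG by limma in either direction, where 0.0317% of 12636 genes were called higher and 0.174% lower. At an unadjusted p below 0.05 stood 1 member, NDUFV2, and 393 genes. The values of the members were shifted upward: 73 of 83 differences were above 0, with a median of log2 0.27 beside 0.02 for all genes. TPM rescaling moved these medians to 0.48 and 0.20, and no member was called. The summed members stood at 7505, 5277 and 5999 FPKM without AREG (numbers 2, 3 and 4) and at 8465, 8132 and 5398 with it. In number 4 the sum was thus lower with AREG. As a share of all FPKM the sums were 1.02%, 0.776% and 1.01% without AREG and 1.55%, 1.13% and 1.12% with it. Sample numbers recur in both groups and were taken to pair the libraries. By these numbers 32 members were higher with AREG in all 3 pairs while ATP5E was lower, where 17.6% of all genes were higher in all 3. With the sample number as a block, 1.12% of all genes were called in either direction and still no member, the smallest adjusted p being 0.204 (limma) and 12 members standing at an unadjusted p below 0.05, as did 1422 of all genes (11.3%).

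NDUFV2, an iron-sulfur subunit of the NADH module, stood at 27.9, 32.5 and 25.8 FPKM without AREG (numbers 2, 3 and 4) and at 61.7, 48.7 and 33.8 with it, without overlap (log2 0.69, SE 0.272, adjusted p = 0.999, limma). UQCRC1, a core protein of complex III, stood at 95.3, 65.4 and 50.4 FPKM without AREG and at 148, 163 and 66.1 with it (log2 0.77, SE 0.422, adjusted p = 0.999, limma). Blocked by number and rescaled to TPM its adjusted p was 0.0561, and blocked without the number 4 pair, an alternative added after seeing the data, 0.0389 (log2 0.97). Each pair was higher with AREG, but the value of number 4 with AREG lay among those without. CYCS stood at 4.99, 5.94 and 2.48 FPKM without AREG and at 13.1, 9.84 and 4.15 with it (log2 0.82, SE 0.454, adjusted p = 0.999, limma; 0.214 once blocked by number). The complex II genes also did not pass: SDHA averaged 34.8 and 42.2 FPKM (log2 0.26), SDHB 52.9 and 56.3 (0.07), SDHC 12.6 and 14.2 (0.09) and SDHD 19.7 and 27.2 (0.41). ATP5E, the most abundant ATP synthase gene, was lower with AREG in each pair (449, 405 and 531 FPKM without, 416, 366 and 385 with, in the order of the numbers).

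**Figure D3:**
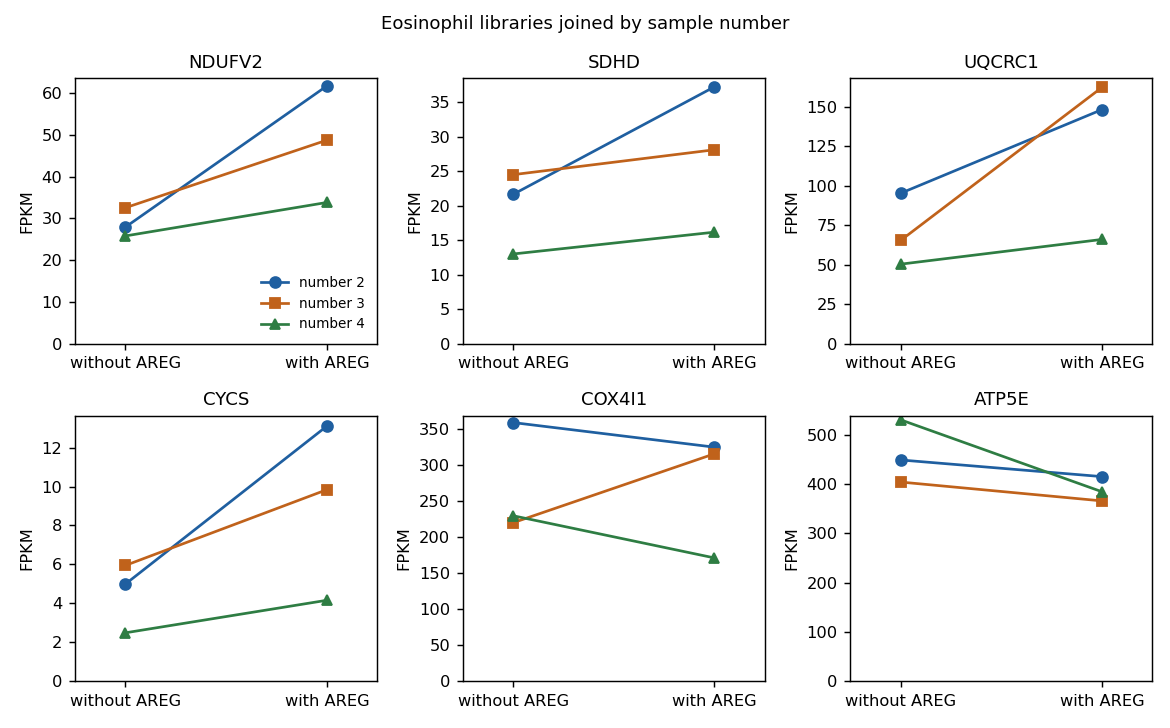
FPKM (y axis) of 6 subunit genes in eosinophils without and with AREG (x axis), with lines joining libraries of equal sample number. NDUFV2, SDHD, UQCRC1 and CYCS are higher with AREG in each pair, COX4I1 goes both ways and ATP5E is lower in each pair.

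Other values moved with these groups in the eosinophil libraries. Small RNA features held 29.2 to 38.4% of FPKM without AREG and 20.01 to 35.4% with it. The 10 macrophage genes summed to 2305, 2423 and 326 FPKM without AREG and to 624, 1142 and 202 with it, and the 8 T cell genes to 428, 286 and 191 and to 241, 175 and 105, in the order of the sample numbers. Neutrophil genes summed to 8070.2 to 20490.0 FPKM without AREG and 6749 to 13767 with it. None of these 3 lists of cell markers had a gene at 0 in all libraries of a group, and their part in the values of the subunit genes was not tested. The eosinophil tables listed COX4I2, COX6A2, COX6B2, COX7B2 and COX8C at 0 in all 6 libraries, and COX7A1 and NDUFA4L2 averaged at most 1.45 and 0.0922 FPKM in a group. The c subunit families were also divided differently, with ATP5G2 at 69.1% of their summed FPKM without AREG and 64.3% with it, and ATP5G3 at 14.7% and 18.1%. This was not set against the mouse tables by a test.

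Between dGATA and wild-type lungs none of 84 genes tested was called by limma, where 0.0437% of 13727 genes were called higher and 0.051% lower. The smallest adjusted p was 0.574 (limma), and 4 members and 939 genes stood at an unadjusted p below 0.05. The values lay slightly higher in dGATA lung, 75 of 84 differences being above 0 (median log2 0.12, all genes -0.03; after TPM rescaling 0.02 and -0.13). For 13 of the 84 genes tested the groups did not overlap, all higher in dGATA, against 4.26% of all genes tested. Ndufc2, a membrane-arm subunit, stood at 63.0, 67.5 and 63.2 FPKM in wild type and at 98.4, 78.1 and 79.5 in dGATA lung (log2 0.39, SE 0.112, adjusted p = 0.574, limma). Cycs stood at 10.8, 11.4 and 9.96 FPKM and at 14.6, 12.3 and 12.8 (log2 0.28, adjusted p = 0.665, limma). Sdha averaged 68.5 and 68.7 FPKM, Sdhb 78.0 and 92.4 (log2 0.23, adjusted p = 0.757, limma) and Sdhd 67.3 and 75.0 (0.14). The summed members stood at 9515, 9017 and 8808 FPKM in wild type and at 8793, 10764 and 10560 in dGATA lung. Replicate 1 of the dGATA lungs therefore lay below all wild-type lungs and the other dGATA lungs above them. That library also had the lowest summed macrophage genes of the 6 lungs (615 FPKM, the others 1344 to 1968) and smooth muscle genes (409.8, the others 636 to 693). It was lowest as well for T cell (58.8 FPKM), cell cycle (76.8) and housekeeping genes (3554), and highest for lung epithelial and endothelial genes (123419). The part of these differences in the subunit levels was not tested.

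The Th2 cells and the lungs, fitted together over 12 mouse libraries, differed in the proportions of single subunits within the same complex. Tissue, culture and any batch cannot be told apart in this comparison. Of 85 genes tested 15 were higher in Th2 cells and 39 lower, where 34% of all 14148 genes were higher and 54.5% lower. These counts depended on scaling. Under median-of-ratios scaling they were 9 and 47, where 30.9% of all genes were higher and 57.8% lower. Once small RNA features were removed they were 37 and 22, where 38.3% of all genes were higher and 50.1% lower. In all 4 scalings 9 genes were higher in Th2 cells, Ndufa1, Ndufab1, Ndufb6, Sdhb, Uqcrfs1, Cycs, Cox7c, Atp5b and Atp5g3, and 22 were lower. The shares of all genes called in all 4 scalings are not given here, so these counts do not set the members apart. Among the 9 higher genes Cycs differed most. Its 6 Th2 libraries lay between 37.8 and 60.9 FPKM and its 6 lung libraries between 9.96 and 14.6, with means of 49.3 ± 9.16 and 11.96 ± 1.62 FPKM (n = 6, 4.12-fold, log2 1.95, SE 0.0850, adjusted p = 1.04e-09, limma).

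Subunits of the same complex went opposite ways. In complex II Sdhb averaged 122 FPKM in Th2 cells and 85.2 in lung (log2 0.50, adjusted p = 2.86e-05, limma), whereas Sdha averaged 39.6 and 68.6 (log2 -0.78, adjusted p = 1.28e-08, limma) and Sdhc 57.6 and 78.0 (-0.43). In complex III the Rieske iron-sulfur protein gene Uqcrfs1 averaged 85.1 and 55.7 FPKM (log2 0.61), and Uqcr11 125 and 206 (-0.73). In complex I Ndufa1 averaged 175 and 98.0 (log2 0.81), the mitochondrial acyl carrier protein gene Ndufab1 27.9 and 20.02 (0.46), Ndufa7 101 and 195 (-0.95) and Ndufb4 26.2 and 44.7 (-0.76). In ATP synthase Atp5b averaged 470 and 327 (log2 0.51) and Atp5g3 348 and 220.2 (0.66). Atp5g3 held 58.1% of the c subunit FPKM in Th2 cells and 48.9% in lung. That difference had an exact two-sided permutation p = 0.00216, the smallest that 6 against 6 libraries can give, or 0.00244 adjusted over 9 shares.

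The widest differences were in the tissue-restricted partners of complex IV. Cox4i2, a form known from lung and its vessels (chr2:152754173-152765037), stood at 0.21 to 0.84 FPKM in the 6 Th2 libraries and at 48.6 to 76.3 in the 6 lungs (log2 -5.24, SE 0.113, adjusted p = 2.59e-12, limma). Ndufa4l2, a hypoxia-inducible relative of Ndufa4 (chr10:127514939-127517156), was listed at 0 in 5 Th2 libraries and stood at 21.3 to 34.1 FPKM in the lungs (log2 -4.80). Cox6a2 and Cox8b, forms of heart and skeletal muscle, averaged 0.171 and 0.701 FPKM in Th2 cells and 43.3 and 39.6 in lung (log2 -5.18 and -4.51). Cox7a1, also a muscle form, averaged 2.26 and 41.3 FPKM (-3.68), and Cox6b2, known from testis, 1.03 and 30.1 (-4.07). Their common partners Cox4i1, Cox6a1, Cox6b1, Cox8a and Ndufa4 did not pass in the same fit, at log2 -0.12, -0.10, -0.02, -0.15 and -0.15, and Cox7a2 was higher in Th2 cells (139.9 and 114 FPKM, log2 0.29, adjusted p = 0.00315, limma). These calls depended on scaling. Under median-of-ratios scaling Cox4i1, Cox6a1 and Ndufa4 were lower in Th2 cells (adjusted p = 0.0128, 0.0228 and 0.0217, limma) and Cox7a2 was not called (0.0563). Once small RNA features were removed Cox6a1 and Cox6b1 were higher (0.0429 and 0.00357). Cox4i1 and Cox6a1 were also lower without dGATA lung replicate 1 (0.0125 and 0.0445), and Ndufa4 was lower without IL-33 replicate 6 (0.00890) but higher for IL-2 Th2 cells against wild-type lung (log2 0.19, 0.0395).

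In the lung the restricted forms made up a minority of each family. Cox4i2 held 13.7% of the summed FPKM of Cox4i1 and Cox4i2 (0.170% in Th2 cells), Cox6a2 11.4%, Cox6b2 8.86%, Cox8b 11.5%, Ndufa4l2 10.1% and Cox7a1 26.0%, each of the sum with its common partner. Each of these 6 shares did not overlap between tissues (exact two-sided permutation p = 0.00216, 0.00244 adjusted, n = 6 per tissue). Wild-type and dGATA lungs did not differ in any of the 9 shares by the same exact permutation test (smallest p = 0.2, where 3 against 3 cannot go below 0.1). Cox7b2 and Cox8c were listed at 0 in all 12 mouse libraries.

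**Figure D4:**
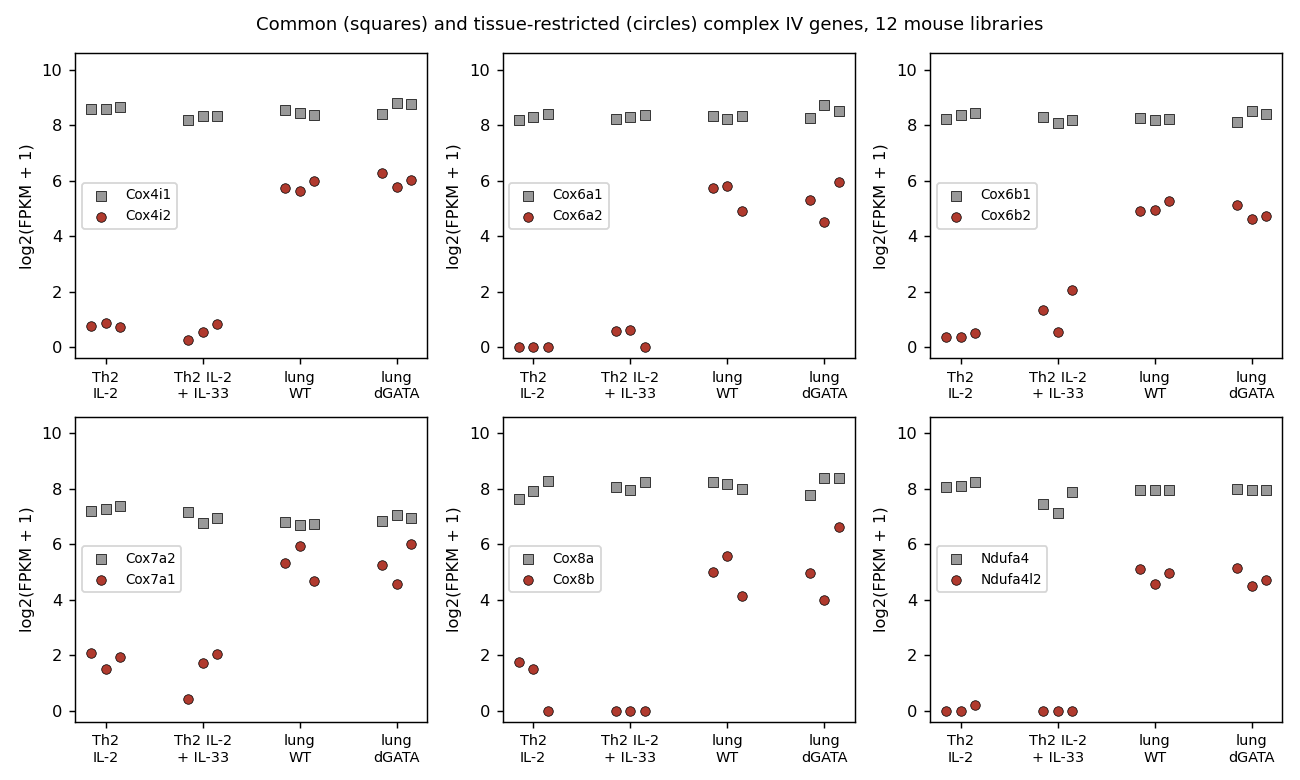
Level on the log2(FPKM + 1) scale (y axis) of the common gene (squares) and the tissue-restricted gene (circles) of 6 complex IV pairs in each of the 12 mouse libraries (x axis, by group). The circles lie near 0 to 2 in the Th2 cells and at 4 to 7 in the lungs, and the squares lie close together in all 4 groups.

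Within the 6 lungs the muscle forms varied together and not by genotype. Cox6a2 stood at 52.0, 56.0 and 29.4 FPKM in wild-type replicates 1 to 3 and at 38.7, 22.0 and 61.7 in dGATA replicates 1 to 3, and Cox7a1 at 39.2, 60.7 and 24.3 and at 37.4, 22.4 and 63.7. Cox8b ranged more widely, at 31.0, 46.1 and 16.4 and at 30.6, 15.04 and 98.5 FPKM. The 10 cardiac muscle genes summed to 801, 1188 and 496 FPKM in wild type and to 480, 293 and 1425 in dGATA lung. Against this sum Cox7a1 had Pearson's r = 0.959 (n = 6, exact permutation p = 0.00278, 0.0375 adjusted over 18 relations), Cox8b 0.894 (p = 0.00417, 0.0375 adjusted) and Cox6a2 0.938 (p = 0.0111, 0.0667 adjusted). Spearman's rho was 0.943 for each (exact permutation p = 0.0167, 0.1 adjusted), and without the 2 lungs farthest from the median r was 0.758, 0.711 and 0.946. Each genotype holds 3 lungs, too few for a value within genotype, and the relations share the same libraries. Cox4i2 had r = -0.166 with the cardiac sum (exact permutation p = 0.768) and -0.846 with the sum of 11 pericyte and smooth muscle genes (exact permutation p = 0.025, 0.1125 adjusted), and r was also -0.846 without the 2 farthest lungs. Its Spearman's rho with that sum was -0.714 (exact permutation p = 0.136). The smooth muscle genes Acta2 (132 to 304 FPKM) and Tagln (136 to 230) were the largest parts of the sum. Single genes of the list went either way. Acta2 was lowest (132) in dGATA replicate 1, where Cox4i2 was highest (76.3). The pericyte gene Higd1b was lowest (30.6) in wild-type replicate 2, where Cox4i2 was lowest (48.6). These single genes were not tested against Cox4i2. Cox8b had 0.943 with 6 brown fat genes (exact permutation p = 0.0431, 0.129 adjusted), which was -0.248 without the 2 farthest lungs. Replicate 3 of the dGATA lungs, highest for Cox8b, also listed Nppa, an atrial peptide gene and 1 of the 10, at 303 FPKM, against 3.54 to 18.7 in the others, and the brown fat gene Ucp1 at 34.3, against 0 to 1.01. Wild-type replicate 1 had the highest skeletal muscle genes (552 FPKM summed, the others 31.3 to 77.5). The amount of heart, muscle or fat RNA in each lung was not measured otherwise, and its part in these subunit levels was not tested.

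The genotype comparison of the same forms was within this spread. Cox4i2 averaged 54.5 ± 7.12 FPKM in wild type and 65.0 ± 11.4 in dGATA lung (n = 3, log2 0.24, adjusted p = 0.820, limma), Ndufa4l2 28.8 ± 5.55 and 26.9 ± 6.56 (log2 -0.10) and Cox6b2 32.2 ± 5.13 and 27.9 ± 5.37 (-0.20). Cox6a2 (log2 -0.23, SE 0.409), Cox7a1 (-0.04, SE 0.452) and Cox8b (0.31, SE 0.698) had SEs larger than their differences.

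**Figure D5:**
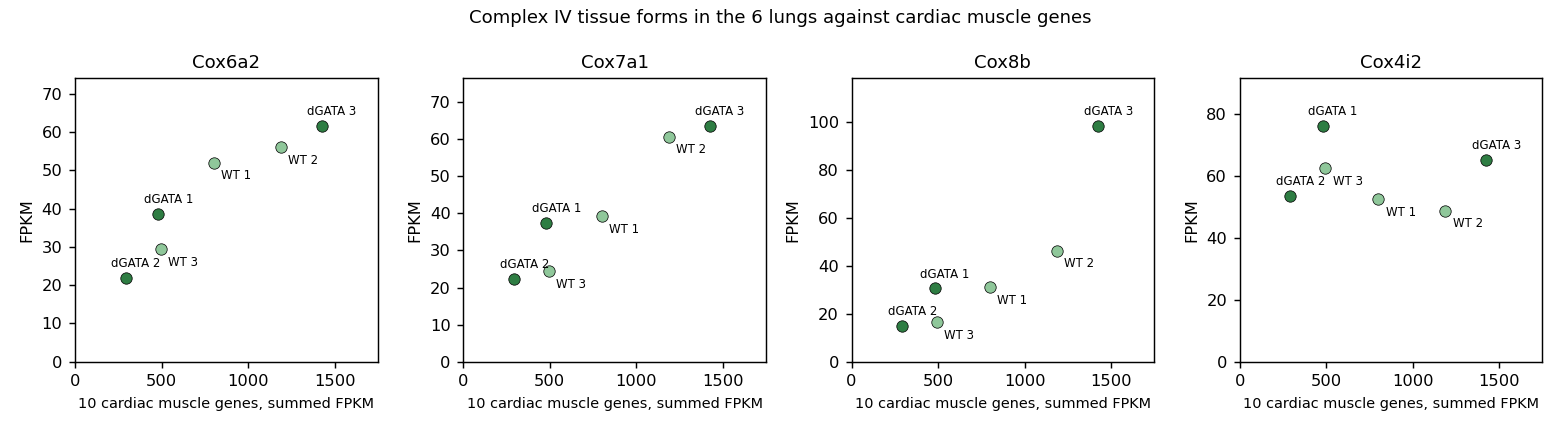
FPKM of 4 tissue-restricted complex IV genes (y axes) against the summed FPKM of 10 cardiac muscle genes (x axis) in the 6 lungs, wild type in light and dGATA in dark green. Cox6a2, Cox7a1 and Cox8b follow the cardiac sum across both genotypes, with dGATA 3 highest, and Cox4i2 does not.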

How the data were processed

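Gene expression was measured by RNA sequencing (TRIzol RNA, stranded mRNA kit, per the labels' protocols) in 18 libraries. The deposited values are FPKM per gene, made by the authors. The submitters' processing notes name TopHat 1.3.2, Bowtie 0.12.8, Cufflinks 2.0.2 and the mouse build mm10. For the tables with human symbols no build is given in the sources used here. No read counts were used, so depth is known only in relative terms. FPKM were summed per symbol and tested as log2(FPKM + 1) with limma 3.58.1 (R 4.3.3, trend) on genes with FPKM of at least 1 in 3 libraries. Members, lists and tests were chosen with earlier results of these data known. Named by rule were the paralogue families, the Sdh genes and Cycs, the 2 largest called changes per complex and direction, the most abundant genes, and 3 called genes with the smallest p per other list; others, such as NDUFV2, UQCRC1, ATP5E, Ndufb7, Ndufs4, Ndufs5 and Ndufc2, were chosen after their values were seen. Eosinophil libraries that share a number in the labels were taken as pairs. After removing group means, the correlation within a number was 0.399, 0.356 and 0.669 (numbers 2, 3 and 4). Between numbers 2 and 3 it was 0.308 and 0.281, and between number 4 and the others -0.506 to -0.427. These values set number 4 apart but hardly tell number 2 from number 3. Alternatives changed the scaling, filter, pseudocount, block and libraries. The fits were tested on simulated data. The motif search used Python 3.11.15.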

Additional observations from a re-analysis of the deposited data

How the results depend on the processing

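In the Th2 cells 14 members fell under median-of-ratios scaling and 17 after TPM rescaling, against 32 as deposited. Of all genes 17.8%, 14.9% and 25.7% fell, in the same order. Leaving out 1 library gave 14 to 29 members that fell (14 without IL-33 replicate 4, 15 without IL-2 replicate 3, 19 without IL-2 replicate 1) and 1 to 2 that rose. Without libraries 5 and 6, an alternative chosen after seeing the data, 4 rose and 34 fell. Between tissues 9 members were higher in Th2 cells under median-of-ratios scaling, as were 30.9% of all genes. Without small RNA features 37 were higher and 22 lower, where 38.3% and 50.1% of all genes were. For IL-2 Th2 cells against wild-type lung 31 were higher and 25 lower. The cause of these shifts was not tested, and the shares of all genes called in the fits on fewer libraries are not given here.

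Genes that did not pass changed sign under some settings. Sdhc in Th2 cells stood at 0.029 under median-of-ratios scaling and 0.0075 after TPM rescaling. In the lung Cox7a1 stood at 0.0026 under median-of-ratios scaling, and Sdha at -0.099 after TPM rescaling and -0.097 with small RNA features removed as well. On leaving out 1 library the log2 difference ran from -0.58 to 0.15 for Cox6a2, from -0.41 to 0.33 for Cox7a1, from -0.40 to 0.92 for Cox8b, from -0.28 to 0.048 for Ndufa4l2 and from -0.029 to 0.037 for Sdha in the lung, and from -0.077 to 0.23 for SDHB and from -0.11 to 0.45 for SDHC in the eosinophils. Cox6a1 in Th2 cells stood at 0.11 under median-of-ratios scaling, 0.092 after TPM rescaling and 0.0057 without libraries 5 and 6, and ran from -0.061 to 0.045 on leaving out 1. COX4I1 in eosinophils stood at 0.197 after TPM rescaling, blocked or not, at 0.028 without small RNA features, at 0.048 and 0.188 blocked without number 2 or 4, and ran from -0.18 to 0.28 on leaving out 1. Between tissues the common complex IV genes turned positive: without small RNA features Cox4i1 stood at 0.141, Cox6a1 at 0.158, Cox6b1 at 0.234, Cox8a at 0.111 and Ndufa4 at 0.112; for IL-2 Th2 cells against wild-type lung Cox4i1 stood at 0.142, Cox6a1 at 0.012, Cox6b1 at 0.113 and Ndufa4 at 0.187; Cox6b1 stood at 0.016 after TPM rescaling and ran from -0.082 to 0.019 on leaving out 1. Over the genes and settings tried, 79 values in Th2 cells lost a call and 9 gained one, and in the tissue comparison 1 lost and 6 gained one.

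With the replicate block 0 eosinophil members and 0 lung members were called. In the lung the correlation within a number was -0.286, -0.116 and -0.243, so numbers there name no pairs. In the eosinophil block, leaving out both libraries of number 4 (chosen after seeing the data) gave 1 member higher, UQCRC1 (log2 0.97, adjusted p = 0.0389, limma); without number 2 SDHC stood at -0.019, and without number 3 SDHB at -0.018. No paired analysis was possible because the Th2 groups share no replicate number. Depth in reads is unknown, so the limits of genes listed at 0 cannot be given.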
